A study of Mus musculus with 24 samples.

Results

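Gene expression in the cerebellum of wild-type (WT) mice was compared with that in the brainstem of WT mice, in 8 of the 24 arrays of the series. These were the 4 arrays labelled WT cerebellum and the 4 labelled WT brainstem, taken by tissue and genotype alone. The other arrays hold WT liver and the same 3 tissues of CAG42 mice, knock-in mice carrying an expanded CAG repeat in Atxn2, with 4 arrays a group. The 8 arrays were labelled wild type and no treatment was named. They were 18 months old, came from matings of heterozygous knock-in mice and so were littermates of mutants, and had a C57BL/6 background. Their sex was not given in the sources used here. Each sample was a piece of tissue with all its cell types, and the labels do not say where the brainstem piece was cut.

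The cerebellum is built on a few kinds of neuron repeated many times over. Granule cells, small excitatory neurons that outnumber all others, feed Purkinje cells, the large inhibitory neurons that carry the only output of the cortex, and Bergmann glia ensheathe the Purkinje cell dendrites. The brainstem holds many small nuclei, among them motor neurons of the cranial nerves and groups that make serotonin, noradrenaline or dopamine, crossed by long myelinated tracts.

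A level below is a log2 value after RMA (robust multi-array average, a background correction, quantile normalization and probe summary). A difference is WT cerebellum minus WT brainstem on that log2 scale, so 1 stands for a factor of 2. A probe set was called at a Benjamini-Hochberg adjusted p under 0.05 in limma, fitted over all 24 arrays. Probe sets of olfactory and vomeronasal receptor genes, 83 in all, served as a guide to the lower end of the scale: 95% of them lay at or under a mean level of 3.40, called the background level here. Where the region with less RNA lay under it, the fold is that of the array values and is not an RNA ratio. Levels of different genes come from different probes and were not compared with each other.

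The 2 regions stood far apart. Arrays of the same region correlated at r of 0.992 to 0.995 across all probe sets, and arrays of different regions at 0.946 to 0.955. Of 45037 probe sets 47.0% were called, and 48.9% had levels that did not overlap between the regions. Called higher in cerebellum were 8469 (18.8% of all probe sets) and lower 12701 (28.2%), of which 2317 (5.14% of all probe sets) and 3186 (7.07%) differed by at least 1. With each array centred on its median the split was nearly even, with 10395 called higher and 9998 lower, so the excess of lower calls depends on the scaling. With 1 probe set a gene, the brightest over the 8 arrays, 17097 genes were measured. Of these 50.6% were called, 14.0% higher in cerebellum (3.56% by at least 1) and 36.6% lower (9.99% by at least 1), and in 54.3% the 4 cerebellum levels did not overlap the 4 brainstem levels. These shares are the background against which the counts of each gene list are set. All lists are marker or function lists from general knowledge and were chosen with earlier results of these data known.

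**Figure D1:**
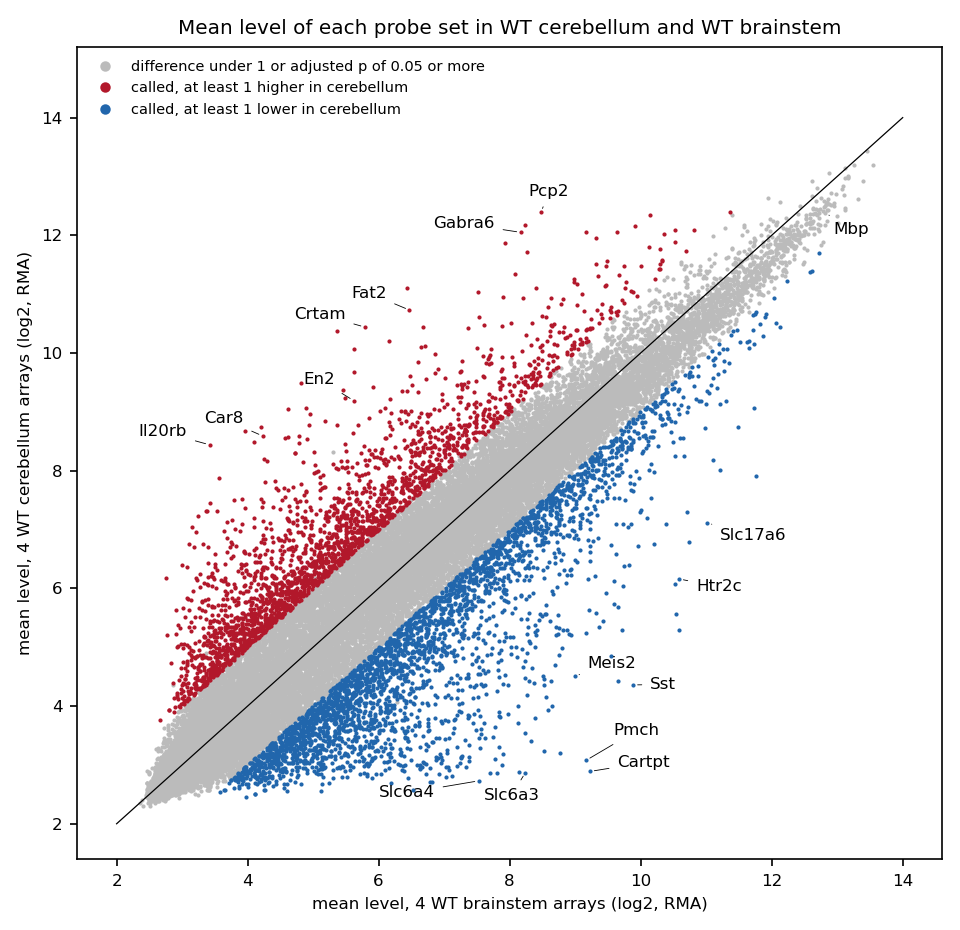
Mean level of every probe set over the 4 WT brainstem arrays (x axis) and the 4 WT cerebellum arrays (y axis), both log2. Each point is a probe set, the line marks equal levels, and red and blue mark those called with a difference of at least 1. The farthest points lie below the line (Cartpt, Pmch), where cerebellum levels sit at the lower end of the scale.

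Granule cell genes were higher in cerebellum almost without exception. Of 19 measured, 18 were called higher (94.7%, against 14.0% of all genes), none lower, and the median difference was 2.21 (all genes, -0.15). Gabra6, a GABA-A receptor subunit of mature granule cells, had levels of 12.09, 12.08, 11.98 and 12.03 in the 4 cerebellum arrays and of 8.72, 7.95, 7.57 and 8.44 in the 4 brainstem arrays. The cerebellum values were tight and the brainstem values spread over more than 1 unit, with no overlap (difference 3.88, SE 0.23, 14.7-fold, adjusted p = 1.26e-12 in limma). Fat2, a giant cadherin of parallel fibres, lay between 10.65 and 10.83 in cerebellum and between 6.15 and 6.71 in brainstem (difference 4.26, SE 0.19). Neurod1, a transcription factor of granule cells, differed by 3.94 (SE 0.15), Cbln3, a cerebellin that granule cells secrete, by 3.93 (SE 0.20), and Gabrd, the extrasynaptic GABA-A subunit that pairs with Gabra6, by 3.92 (SE 0.25). Grin2c, the NMDA receptor subunit of mature granule cells, was 7.25-fold higher, and Reln, the secreted glycoprotein reelin, 4.45-fold higher. The transcription factors Pax6 and Etv1 differed by 2.73 and 1.48. Barhl1, a factor of the rhombic lip, was the exception: its level was 4.38 in cerebellum and 4.33 in brainstem (difference 0.06, SE 0.11, adjusted p = 0.713). In bulk tissue, more cells of a type and more RNA per cell cannot be told apart, here and below.

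Purkinje cell genes were also higher, with 15 of 18 called higher, 1 lower and a median of 1.36. Pcp2, a regulator of G proteins made almost exclusively by Purkinje cells in brain, had levels of 12.51, 12.31, 12.36 and 12.40 in cerebellum and of 8.96, 8.35, 7.87 and 8.74 in brainstem. Every cerebellum array was thus more than 3 units above every brainstem array (difference 3.92, SE 0.23, 15.1-fold). On its other probe sets Pcp2 differed by 4.67 and 3.53. Car8 is a carbonic anhydrase homologue that binds the IP3 receptor. By the brightest probe set of each gene it showed the widest gap of the list at 4.36 (SE 0.25, 20.5-fold). Its levels were 8.19, 8.0, 8.95 and 9.21 in cerebellum and 4.16, 3.99, 4.0 and 4.78 in brainstem, so it varied by about 1 unit within cerebellum too. Ppp1r17, a phosphatase inhibitor that is a substrate of cGMP-dependent kinase, differed by 3.78, Homer3, a postsynaptic scaffold, by 2.79, Lhx1, a LIM homeobox factor, by 2.26, and Slc1a6, the Purkinje cell glutamate transporter EAAT4, by 2.22. Among calcium binding proteins, Pvalb was 2.05-fold higher, and Calb1 was 4.60-fold higher on its brightest probe set (difference 2.20), with differences of 2.36 to 3.52 on its other 3 probe sets. Foxp2, a forkhead factor of Purkinje cells that also marks brainstem nuclei, ran the other way, with levels of 6.19 to 6.59 in cerebellum and 8.42 to 8.76 in brainstem (difference -2.21, SE 0.20), and all 5 of its probe sets were called lower. Pcp4, a calmodulin regulator, was called at a difference of 0.69 (adjusted p = 0.021), a call that was lost without WT brainstem replicate 2 (0.64, adjusted p = 0.0545).

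The upstream sequences of a pair of these genes are shown as a description only. Rora, a nuclear receptor needed by Purkinje cells and a member of that list, was higher in cerebellum (difference 1.23, SE 0.23). Whether this receptor acts on genes of either list was not tested. The letters searched were AGGTCA, the half-site such receptors read, on both strands of the 250 bases before the annotated start (RefSeq, GRCm38.p6). It occurred in 15.8% of 27025 gene symbols, in 4 of the 11 Purkinje cell genes with a window (Pcp2, Dner, Pcp4, Homer3) and in 4 of the 13 granule cell genes with a window (Grin2c, Fat2, Barhl1, Nfix). Capitals mark the match, which is 12 bases before the most upstream annotated start of Pcp2 at chr8:3625548-3625797 (minus strand) and 31 bases before that of Fat2 at chr11:55312258-55312507 (minus strand, match on the opposite strand). Another of the 4 windows of Pcp2, at chr8:3625283-3625532, held no match. A match is a description of the letters and not a binding site.
Pcp2: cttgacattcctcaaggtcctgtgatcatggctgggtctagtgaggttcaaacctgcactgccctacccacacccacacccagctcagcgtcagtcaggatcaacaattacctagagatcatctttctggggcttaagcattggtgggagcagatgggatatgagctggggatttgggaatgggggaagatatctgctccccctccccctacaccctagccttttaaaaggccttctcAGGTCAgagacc
Fat2: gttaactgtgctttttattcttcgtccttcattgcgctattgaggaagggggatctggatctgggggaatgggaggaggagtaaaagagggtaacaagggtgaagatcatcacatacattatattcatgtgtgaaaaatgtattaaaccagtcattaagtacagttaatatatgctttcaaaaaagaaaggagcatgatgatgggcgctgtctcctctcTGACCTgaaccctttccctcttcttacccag

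Granule and Purkinje cell genes were not at the lower end of the scale in brainstem, and there they varied together. The mean level over the 19 granule cell genes was 7.66, 7.43, 7.39 and 7.70 in WT brainstem arrays 1 to 4, and over the 18 Purkinje cell genes 8.01, 7.81, 7.82 and 8.02. Arrays 1 and 4 were thus the higher ones for both lists. In cerebellum the same means ran only from 9.80 to 9.87 and from 9.43 to 9.63. Whether cerebellar tissue in the brainstem piece or expression by brainstem cells gave these levels was not tested.

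The other cells of the cerebellum gave smaller groups. Gdf10, a growth factor that marks Bergmann glia, was 10.6-fold higher in cerebellum, with levels of 10.01 to 10.22 against 5.99 to 7.41. Of the 9 Bergmann glia genes measured, 5 were called higher and 1 lower. Several are shared with other cells, such as Gria1 and Gria4, AMPA receptor subunits (differences 0.55 and 1.25), and Fabp7, a fatty acid binding protein of glia, was not called (-0.56, SE 0.25, adjusted p = 0.0733). Eomes, the T-box factor of unipolar brush cells, an excitatory interneuron of the granular layer, was 6.41-fold higher, with levels of 6.74, 6.79, 7.01 and 5.98 in cerebellum and 3.82, 3.63, 4.22 and 4.13 in brainstem. It was the only member called higher among 6 genes of cerebellar nuclei and unipolar brush cells, of which 2 were called lower and 3 not called (median -0.23).

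Among the 25 genes with the largest differences in favour of cerebellum were 8 from the granule and Purkinje cell lists and 17 from neither. Il20rb, a subunit of receptors for interleukin-20 family cytokines, had the largest difference of all genes in this direction at 5.02 (SE 0.12, 32.4-fold). Its levels were 8.42, 8.34, 8.59 and 8.41 in cerebellum and 3.55, 3.39, 3.43 and 3.32 in brainstem, the latter close to the background level. Crtam, known as an adhesion molecule of cytotoxic lymphocytes, had levels of 10.49, 10.45, 10.43 and 10.38 in cerebellum and of 6.42, 5.55, 5.17 and 6.0 in brainstem (difference 4.65, SE 0.28). Il16, whose long form is a neuronal PDZ protein, differed by 3.69. The probe set named for Iltifb, a gene of the interleukin-22 family, differed by 4.55. Whether its signal came from that gene was not tested.

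Others in that group code for enzymes, channels or structural proteins. Itpka, an inositol trisphosphate kinase of dendritic spines, differed by 3.95, Tdo2, the tryptophan dioxygenase best known from liver, by 3.80, and Aqp6, an aquaporin, by 3.81, although 1 of its 4 probe sets was not called. Comp, a cartilage matrix protein, Mybpc3, the cardiac myosin binding protein C, and Ltbp2, a binding protein of latent TGF-beta, were 14.9-fold to 15.8-fold higher, each with a brainstem mean under the background level. Nrk, a kinase, differed by 4.72 and Exph5 by 4.05. All 25 were called in CAG42 mice too, at differences of 3.61 to 4.76.

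**Figure D2:**
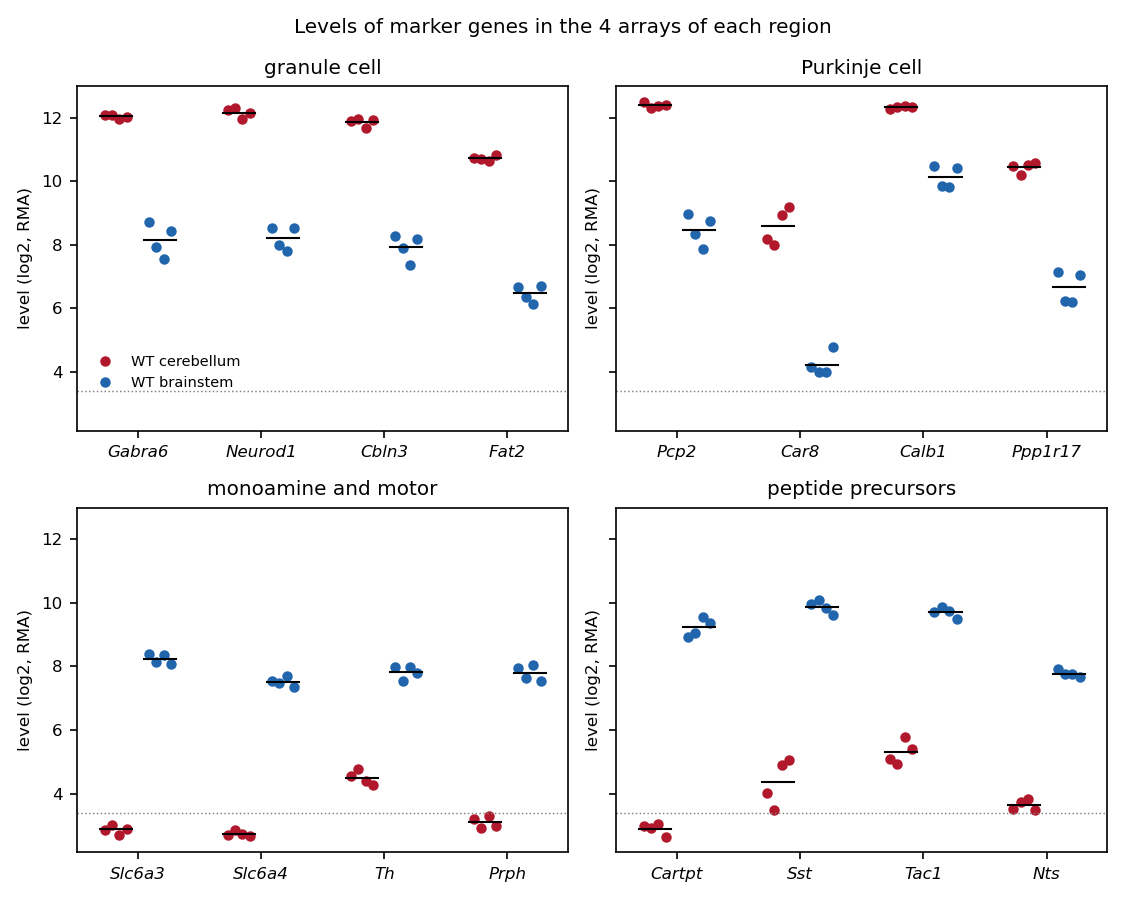
Levels (log2, y axis) of 16 marker genes in each array, red for WT cerebellum and blue for WT brainstem, with a bar at each mean and a dotted line at the background level of 3.40. Granule and Purkinje cell genes keep levels of 3.99 or more in brainstem, while Slc6a3, Slc6a4, Prph and Cartpt lie under the line in cerebellum.

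Of 15 measured genes of monoamine neurons, 13 were called lower in cerebellum (86.7%, against 36.6% of all genes), none higher, and the median difference was -2.21. Slc6a3, the dopamine transporter, had levels of 8.38, 8.13, 8.36 and 8.07 in brainstem and of 2.86, 3.02, 2.71 and 2.89 in cerebellum. The brainstem arrays hardly varied, and the cerebellum arrays were under the background level (difference -5.37, SE 0.10, 41.2-fold, adjusted p = 1.23e-20). Slc6a4, the serotonin transporter, lay at 7.36 to 7.71 against 2.67 to 2.84 (difference -4.80), and Tph2, the enzyme that starts serotonin synthesis in neurons, at 6.87 to 7.47 against 2.92 to 3.04 (difference -4.23). Gata3, a zinc finger factor of serotonin neurons and of inhibitory nuclei, differed by -4.08.

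Enzymes shared by several monoamines were above the background level in both regions. Th, tyrosine hydroxylase, had a mean of 7.83 in brainstem and 4.50 in cerebellum (10.1-fold), and Ddc, the decarboxylase that makes dopamine and serotonin, of 9.59 and 5.73 (14.5-fold). Markers of noradrenaline neurons differed less: Dbh, dopamine beta-hydroxylase, by -1.52 and Slc6a2, the noradrenaline transporter, by -2.21. Pnmt, which makes adrenaline, lay under the background level in both regions (2.93 and 3.02) and was not called (adjusted p = 0.629).

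Of 9 genes of cholinergic and cranial motor neurons, 6 were called lower in cerebellum (66.7%, against 36.6% of all genes) and none higher. The median difference was -1.58, and 4 of the 9 lay under the background level in both regions. Prph, peripherin, an intermediate filament of motor neurons and other cells with peripheral axons, had levels of 7.94, 7.63, 8.04 and 7.53 in brainstem and of 3.21, 2.90, 3.30 and 2.98 in cerebellum. All 4 brainstem values were thus more than 4 units above the highest cerebellum value (25.7-fold). Ecel1, an endopeptidase relative made by motor neurons, differed by -4.55 (23.4-fold), Isl1, a LIM homeobox factor of motor neurons, by -2.49, and Slc18a3, the vesicular acetylcholine transporter, by -1.58. Slc5a7, the choline transporter, lay under the background level in both regions (3.0 and 2.87).

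Peptide precursors showed the largest differences of the comparison. Of 28 measured, 22 were called lower in cerebellum, 1 higher (Npff), and the median was -2.07. In cerebellum 13 of them were under the background level and in brainstem none. Cartpt, the precursor of the CART peptides that act on feeding and reward, headed all genes: its levels were 8.93, 9.06, 9.57 and 9.36 in brainstem and 2.98, 2.91, 3.03 and 2.64 in cerebellum (difference -6.34, SE 0.19, 81.0-fold). Sst, somatostatin, an inhibitory peptide of interneurons, had levels of 9.97, 10.09, 9.85 and 9.63 in brainstem against 4.02, 3.49, 4.89 and 5.04 in cerebellum (difference -5.53, SE 0.26). The spread was wider in cerebellum than in brainstem, yet the closest values of the regions were more than 4 units apart.

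Tac1, the precursor of substance P, differed by -4.41, Nts, neurotensin, by -4.13, Vip, vasoactive intestinal peptide, by -4.10, Grp, gastrin-releasing peptide, by -3.70, Crh, corticotropin-releasing hormone, by -3.40, and Gal, galanin, by -3.38. For a few precursors no difference was called. Penk, the enkephalin precursor, had levels of 9.89 to 10.07 in cerebellum and 9.46 to 9.98 in brainstem (0.20, SE 0.12, adjusted p = 0.169). Npy, neuropeptide Y, lay at 7.95 to 8.26 and 7.95 to 8.50 (-0.24, SE 0.16, adjusted p = 0.244). For both, the values of the regions overlapped. Penk was, however, called higher in cerebellum with quantile normalization of the 8 arrays and with arrays centred on ribosomal protein genes.

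The upstream sequences of Cartpt and Sst are shown because both genes were among the 3 peptide genes with the largest differences (with Pmch at -6.10) and because both windows hold TGACGTCA, the palindrome of the cAMP response element, known from the Sst promoter. It occurred in 1.77% of 27025 symbols and in 3 of the 21 peptide genes with a window (Sst, Cartpt, Ucn). It starts 48 bases before the annotated start of Sst at chr16:23890845-23891094 and 112 bases before that of Cartpt at chr13:99900684-99900933 (both minus strand). Capitals mark the match. The letters CAGATG, an E-box that factors like Neurod1 read, were also searched on both strands and occurred in 16.3% of symbols, in 3 of 13 granule cell genes and in 7 of 21 peptide genes.
Sst: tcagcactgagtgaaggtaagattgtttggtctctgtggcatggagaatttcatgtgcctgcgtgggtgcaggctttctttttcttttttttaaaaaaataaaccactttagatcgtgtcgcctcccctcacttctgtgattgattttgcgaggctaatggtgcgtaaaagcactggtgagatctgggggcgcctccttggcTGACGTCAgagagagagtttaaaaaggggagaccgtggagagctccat
Cartpt: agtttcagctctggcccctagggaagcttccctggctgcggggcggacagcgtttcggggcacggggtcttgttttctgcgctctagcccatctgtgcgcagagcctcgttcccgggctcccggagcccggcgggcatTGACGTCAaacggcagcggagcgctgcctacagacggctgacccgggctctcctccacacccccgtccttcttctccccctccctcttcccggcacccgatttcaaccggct

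Some of the largest brainstem genes are known from regions in front of the hindbrain, and these varied between the brainstem arrays. Pmch, the precursor of melanin-concentrating hormone, which is made in the lateral hypothalamus, had levels of 7.37, 8.19, 9.68 and 11.44 in WT brainstem arrays 1 to 4 and of 2.83 to 3.58 in cerebellum. The lowest and highest brainstem arrays were thus 4 units apart, and the difference of -6.10 carried an SE of 0.95 (adjusted p = 9.59e-06). Hcrt, the hypocretin precursor of the same area, had brainstem levels of 3.29, 3.44, 5.48 and 8.0, and Avp, vasopressin, of 4.53, 4.23, 4.37 and 8.61. Hcrt was called at -2.08 (adjusted p = 0.0274) and Avp at -1.70 (adjusted p = 0.0225), and both calls were lost without WT brainstem replicate 4, at -1.10 (adjusted p = 0.168) and -0.64 (adjusted p = 0.060). Hcrt also lost its call without WT brainstem replicate 3 (-1.94, adjusted p = 0.0658) and, like Avp, without WT cerebellum replicate 2 (-2.06 and -1.61, adjusted p = 0.0515 and 0.0532). Neither was called with the 16 hindbrain arrays alone (adjusted p = 0.0603 and 0.0529) or with the 8 WT arrays alone (adjusted p = 0.0667 and 0.116). Slc6a3, a midbrain gene, did not vary in this way.

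Genes of the caudal hindbrain ran the other way among the same arrays. Hoxa5 had levels of 8.28, 8.28, 6.45 and 6.49 in WT brainstem arrays 1 to 4, Hoxb5 of 7.82, 7.70, 5.67 and 5.92, and Hoxb8 of 4.96, 5.67, 3.31 and 3.29. Arrays 1 and 2 were high for the Hox genes, and arrays 3 and 4 for Pmch and Hcrt. The brainstem arrays of CAG42 mice also varied, with Pmch at 4.58, 4.44, 7.74 and 11.14 and Hoxa5 at 7.92, 6.84, 8.37 and 7.62. There the 2 genes did not run in opposite ways: array 2 was lowest for both, and array 3, highest for Hoxa5, had Pmch at 7.74. The part of the dissection in this spread was not tested. Without WT brainstem arrays 3 and 4, an alternative chosen after seeing these levels, the counts were 6977 probe sets higher and 10840 lower. The difference of Hoxb8 then grew from -1.62 to -2.63 and that of Hcrt shrank to -0.39, which follows from the choice of arrays.

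Hox genes set the position of cells along the hindbrain and spinal cord, and adult brainstem neurons keep part of that pattern, while the cerebellum arises in front of the Hox domain. Of 34 Hox genes measured, 17 were called lower in cerebellum (50.0%, against 36.6% of all genes) and 2 higher (5.88%, against 14.0%). In paralogue groups 1 to 5, 13 of 14 were called lower, with a median of -1.75, in groups 6 to 8 it was 4 of 6, and in groups 9 to 13 none of 14. Hoxa5 (-4.32), Hoxb3 (-4.24), Hoxc4 (-4.09) and Hoxb5 (-4.07) led the list, each with a cerebellum mean under the background level. In cerebellum 32 of the 34 were under it, and 19 were under it in both regions. The 2 called higher, Hoxa9 (0.59) and Hoxb9 (0.25), had means of 3.93 and 3.03 in cerebellum, and the other genes of groups 9 to 13 were under the background level in both regions.

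**Figure D3:**
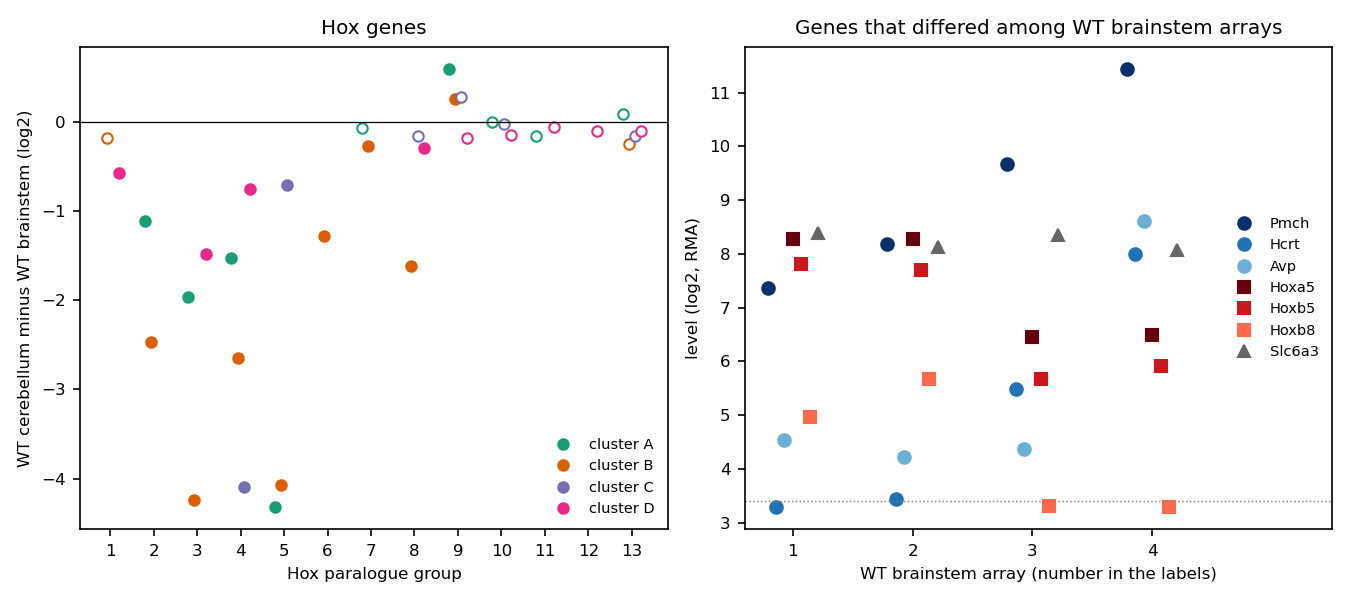
Left, the difference between WT cerebellum and WT brainstem (log2, y axis) of 34 Hox genes by paralogue group (x axis), coloured by cluster, filled where called. Right, levels (log2) of 7 genes in the 4 WT brainstem arrays, with the background level dotted: Pmch and Hcrt are highest in array 4, the Hox genes in arrays 1 and 2, and Slc6a3 stays between 8.07 and 8.38.

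Of 31 other patterning factors, 11 were called higher in cerebellum (35.5%, against 14.0% of all genes). Called lower were 12 (38.7%), close to the 36.6% of all genes. En2, the engrailed gene that shapes the cerebellar lobules, was 11.9-fold higher, with levels of 9.14 to 9.23 in cerebellum and 5.40 to 5.80 in brainstem. Zic5, Zic2 and Zic4, zinc finger factors of cerebellar granule cells and their precursors, were higher by 3.08, 2.57 and 1.35, and the nuclear factor I genes Nfib and Nfix by 1.21 and 1.22. On the other side, Meis2, a Hox cofactor, had levels of 4.51, 3.69, 4.76 and 5.10 in cerebellum and of 8.96, 9.12, 9.01 and 8.92 in brainstem (difference -4.49, SE 0.25). Its relative Meis1 was higher in cerebellum (1.01, SE 0.19), so this pair of related factors took opposite sides. Irx2, an Iroquois factor, differed by -2.47, Nkx6-1, a factor of ventral progenitors and motor neurons, by -2.16, and Gbx2, which sets the border of midbrain and hindbrain, by -2.08. Shox2, a short stature homeobox factor, was among the largest of all differences at -5.56 (47.3-fold).

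Some subunits of the same receptor were found on opposite sides. Of 15 GABA-A receptor genes, 3 were called higher in cerebellum (Gabra6, Gabrd and Gabrb2) and 7 lower. These are shares of 20.0% and 46.7%, not far above the 14.0% and 36.6% of all genes. Gabra5, the subunit of tonic inhibition in forebrain, had levels of 3.55, 3.59, 3.98 and 3.76 in cerebellum and of 8.31, 8.12, 8.10 and 7.97 in brainstem. Every brainstem value was thus far above the highest cerebellum value (difference -4.40, SE 0.14, 21.2-fold). Gabra6 differed in the other direction, by 3.88 on its brightest probe set and by 5.01 on its other one. Gabra3 differed by -2.66, Gabrg1 by -1.68 and Gabrb1 by -1.12. Of 11 genes of glycine and GABA transmission 8 were called lower and none higher. Glra1, the adult alpha subunit of glycine receptors, had a mean of 3.45 in cerebellum and 7.53 in brainstem (difference -4.08), Glra2 differed by -3.43 and Glrb, the beta subunit, by -0.66, whereas the alpha subunits Glra3 and Glra4 were not called (-0.10 and 0.08). Slc6a5, the glycine transporter of glycinergic neurons, differed by -2.51. Gad1, which makes GABA, had levels of 11.02 to 11.22 and 10.92 to 11.17 in the 2 regions and was not called (0.08, SE 0.07, adjusted p = 0.383). Its other probe set was called higher (0.83, adjusted p = 0.000358), and so was the gene with the mean of its probe sets (0.46), with quantile normalization (0.34) and with ribosomal centring (0.53). Gad2 was called lower (-1.05).

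Glutamate genes showed the same kind of split. Slc17a7, the vesicular transporter VGLUT1 of granule cells, lay at 6.50 to 6.73 in cerebellum and 4.21 to 4.44 in brainstem (difference 2.36). Slc17a6, the transporter VGLUT2 of most brainstem excitatory neurons, lay at 6.71 to 7.43 and 10.83 to 11.17 (difference -3.92). Among NMDA receptor genes, Grin2c was higher by 2.86 and Grin2b, the subunit of young and forebrain neurons, lower by 3.09 on the log2 scale, with levels of 4.61 to 4.94 in cerebellum and 7.60 to 8.13 in brainstem. All 6 metabotropic glutamate receptor genes measured were called: Grm4, of parallel fibre terminals, was higher by 2.21 and Grm2 by 0.58, while Grm5 (-3.98), Grm8 (-1.62), Grm7 (-1.52) and Grm3 (-0.70) were lower. The call of Grm2 was lost with the mean of its 2 probe sets (0.16, adjusted p = 0.0861), the other one being at -0.26.

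Cerebellins and their relatives, secreted proteins that bridge neurexins and postsynaptic receptors, divided by member. Cbln3 had a mean of 11.87 in cerebellum and 7.93 in brainstem. Cbln4 had levels of 3.04, 2.94, 3.52 and 3.21 in cerebellum and of 8.08, 7.68, 7.91 and 7.93 in brainstem (difference -4.72, SE 0.18), and Cbln2 of 2.90 to 3.44 and 7.20 to 7.43 (difference -4.11, SE 0.10). In cerebellum both lay near or under the background level. The relatives C1ql2 and C1ql3 differed by -2.95 and -0.68. The pentraxins, which gather AMPA receptors, also divided: Nptx1 was 3.44-fold higher in cerebellum and Nptx2 5.96-fold lower.

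Further down the brainstem side, receptors and signalling proteins of neurons that the lists had not named were among the 25 largest. Htr2c, the serotonin 2C receptor, had levels of 5.80 to 6.58 in cerebellum and 10.43 to 10.79 in brainstem (difference -4.43), a gene also strongly made by choroid plexus. Nrgn, neurogranin, a calmodulin binding protein of forebrain neurons, differed by -4.64, Rasgrf2, an exchange factor for Ras, by -4.45, Gng4, a G protein gamma subunit, by -4.40, and Irs4, an insulin receptor substrate, by -4.83. Lamp5, a membrane protein of interneurons, differed by -5.27 and Slc10a4, a vesicle protein of cholinergic and monoamine neurons, by -4.92. All 25 genes on this side were called in CAG42 mice too, at differences of -3.93 to -5.93.

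Of 33 potassium and HCN channel genes 17 were called lower in cerebellum (51.5%, against 36.6% of all genes) and 8 higher (24.2%, against 14.0%). Kcnc2, of the Kv3 family of fast-spiking neurons, had levels of 4.80 to 5.70 in cerebellum and 9.14 to 9.58 in brainstem (difference -4.03, 16.3-fold), whereas its relative Kcnc1 was higher in cerebellum (0.58). Kcnq5, of the M-current family, differed by -3.53 and Hcn2, a pacemaker channel, by -1.52. The leak channels Kcnk10 and Kcnk3 were higher by 1.89 and 1.22, and Kcnj9, a G protein gated channel, by 1.51. Kcnj10, the glial channel Kir4.1, was lower (-1.41).

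Genes of large axons were lower in cerebellum throughout the list, 11 of 11. The neurofilament genes Nefh, Nefm and Nefl differed by -1.76, -1.69 and -1.21. Sncg, gamma-synuclein, had levels of 5.33 to 6.59 in cerebellum and 9.23 to 9.63 in brainstem (difference -3.54), and Vamp1, a synaptobrevin of fast synapses, differed by -1.57. Of 10 perineuronal net genes 6 were lower, led by the link protein Hapln1 (-2.49) and neurocan, Ncan (-2.43), while Tnc, tenascin C, was higher (1.70).

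Myelin and microglia genes were lower in cerebellum in full. All 24 myelin and oligodendrocyte genes measured were called lower (against 36.6% of all genes), with a median of -1.49 and a range of -2.42 to -0.44. The mean level of the 24 lay between 7.71 and 7.90 in the cerebellum arrays and between 9.23 and 9.27 in the brainstem arrays, so it hardly varied within a region. Olig2, a factor of the lineage, led with 5.10 to 5.40 against 7.57 to 7.73 (difference -2.42, SE 0.12), and Mag, myelin-associated glycoprotein, differed by -1.61 and Mog by -1.54. Mbp, myelin basic protein, with means of 12.38 and 12.82, differed by -0.44 on its brightest probe set and by -1.01 on the other. Of 6 genes of oligodendrocyte precursors, 5 were lower.

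All 16 microglia genes were called lower, with a median of -1.20. Cx3cr1, the fractalkine receptor, had levels of 6.53, 6.70, 6.60 and 6.64 in cerebellum and of 8.16, 8.26, 8.26 and 8.26 in brainstem (difference -1.62, SE 0.09, 3.07-fold). Tmem119 differed by -1.88 and the complement gene C1qa by -1.12. Astrocyte genes did not move as a body: 3 of 15 were higher, 7 lower and 5 not called. The shares of 20.0% higher and 46.7% lower stand against 14.0% and 36.6% of all genes. Gfap, the intermediate filament of fibrous astrocytes, was lower by 1.01 on the log2 scale on its brightest probe set, with overlapping levels. The other Gfap probe sets were called lower too (-1.36 and -1.24). Slc1a3, the transporter GLAST, was higher by 1.18. Aqp4, the water channel, was not called on its brightest probe set (-0.05, SE 0.12, adjusted p = 0.785). Its other 2 probe sets were called higher (0.65 and 0.53).

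**Figure D4:**
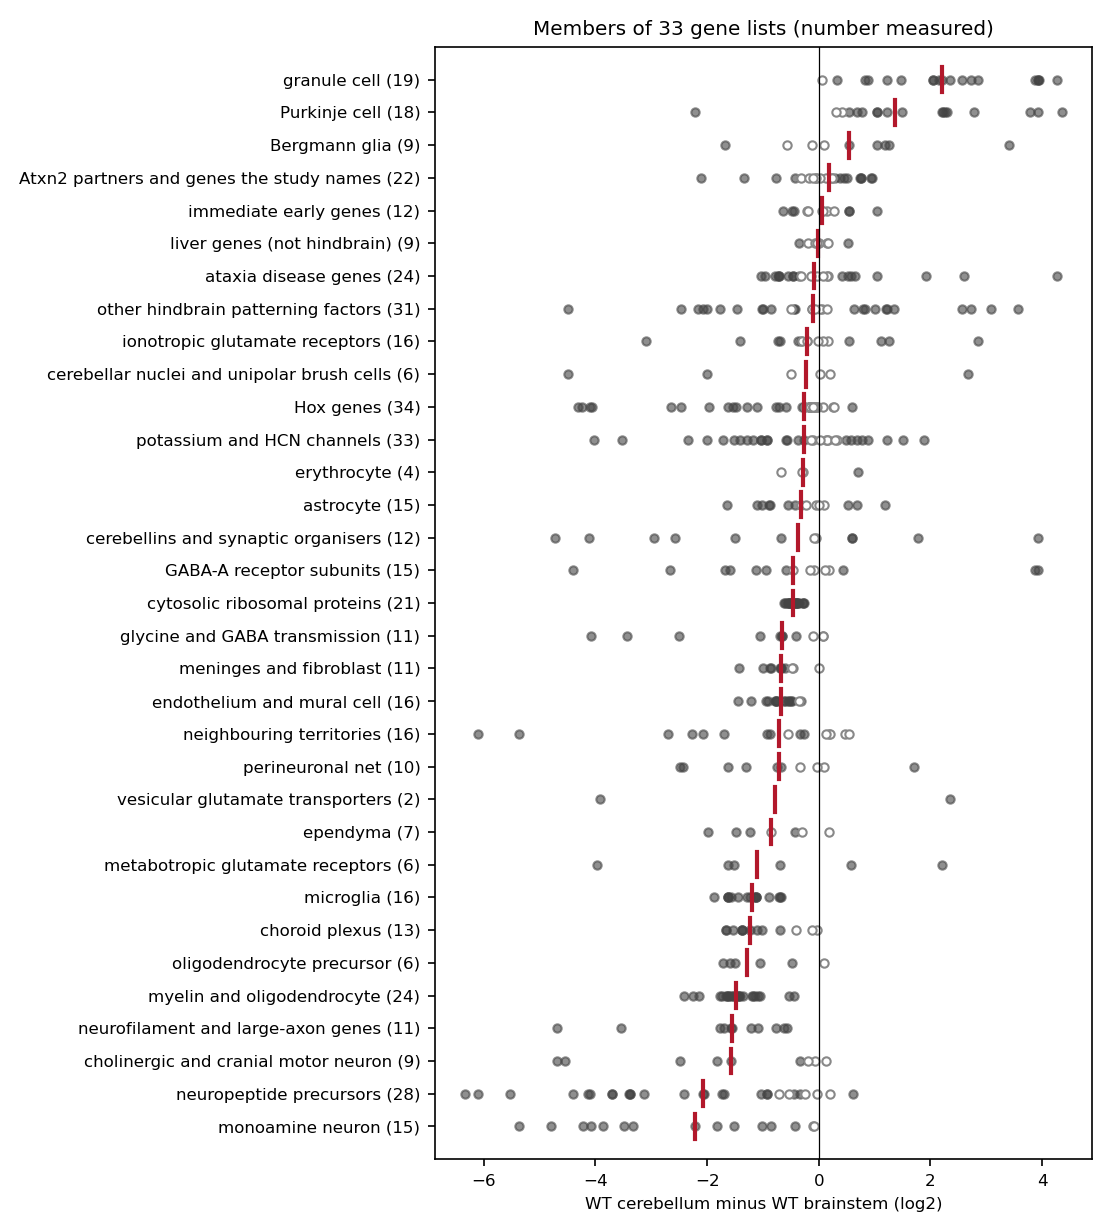
Differences between WT cerebellum and WT brainstem (log2, x axis) of the measured members of 33 gene lists, with the number measured in brackets. Filled points were called, open ones were not, and the red bar is the median, which runs from 2.21 for granule cell genes to -2.21 for monoamine neuron genes.

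Vessel, meningeal and ventricular genes were also on the brainstem side. Of 16 genes of endothelium and mural cells 15 were called lower, with a median of -0.68, the largest being Myh11, the smooth muscle myosin (-1.45). Of 11 meningeal and fibroblast genes 9 were lower. Of 13 choroid plexus genes 10 were called lower, but their levels depended on the array. Ttr, transthyretin, the main product of choroid plexus, had levels of 11.88, 12.72, 12.45 and 9.73 in cerebellum and of 13.09, 12.75, 12.37 and 12.66 in brainstem. WT cerebellum array 4 lay more than 2 units below the other arrays, and without it the difference shrank from -1.02 to -0.37 and was not called (adjusted p = 0.0658). Folr1, the folate receptor of that tissue, had cerebellum levels of 5.06, 6.14, 5.62 and 3.52, and its difference went from -1.67 to -1.14. The call of Ttr was also lost without WT brainstem replicate 1 (-0.90, adjusted p = 0.0738), with the 16 hindbrain arrays alone (adjusted p = 0.0565) and with the 8 WT arrays alone (adjusted p = 0.144).

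Ribosomal protein genes, a group that every cell uses, were called lower in cerebellum in all 21 cases, within a narrow range of -0.62 to -0.26 and with a median of -0.47. This group depends on the scaling: with quantile normalization of the 8 arrays 11 were called lower and the median was -0.15. With each array centred on this group instead, the median of all probe sets rose from -0.07 to 0.38, and calls became 26302 higher and 4758 lower. The median of the granule cell list was then 2.66 and that of the myelin list -1.04, with 22 of 24 myelin genes, 12 of 16 microglia genes and 7 of 16 vessel genes called lower.

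Among genes of inherited ataxias, 8 of 24 measured were called higher in cerebellum and 10 lower (33.3% and 41.7%, against 14.0% and 36.6% of all genes). Fat2 led, followed by Plekhg4, with levels of 7.06 to 7.34 against 4.28 to 4.92 (difference 2.61, SE 0.11). Cacna1a, the P/Q-type calcium channel of Purkinje and granule cells, had levels of 9.21, 9.04, 9.33 and 9.10 in cerebellum and of 7.24, 7.25, 7.24 and 7.24 in brainstem, so the regions were clearly apart (difference 1.93, SE 0.12, 3.80-fold), and all 4 of its probe sets were called higher. Cacna1g, a T-type channel, differed by 1.05. On the lower side the differences were smaller than 1 except for Pdyn, prodynorphin (-1.04), as with Nop56, a protein of small nucleolar particles (-0.79), and Aptx, the DNA repair protein aprataxin (-0.72).

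Atxn2 itself, the gene altered in the mutant mice of the series, had levels of 9.89, 10.05, 9.96 and 10.03 in WT cerebellum and of 10.25, 10.28, 10.38 and 10.28 in WT brainstem. The groups did not overlap, but the difference of -0.31 (SE 0.15, 95% interval -0.64 to 0.01) was not called (adjusted p = 0.103), while 2 of its 5 probe sets were called lower. Fitted with the 16 hindbrain arrays alone it was called (adjusted p = 0.00196), and with the arrays centred on ribosomal protein genes it was 0.13. Pabpc1, the poly(A) binding protein that ataxin-2 binds, lay at 10.74 to 10.86 and 10.81 to 10.90 (-0.05, SE 0.07, adjusted p = 0.563). Fbxw8, an F-box protein, had levels of 6.63, 6.75, 7.81 and 6.80 in cerebellum and of 6.80, 6.61, 7.37 and 6.69 in brainstem, with array 3 high in both regions (0.13, SE 0.23, adjusted p = 0.686, and 0.02 without both arrays 3). Adam1a, a metalloprotease, was higher in cerebellum (0.74, SE 0.16, adjusted p = 0.000488), although 1 of its 2 probe sets was not called. Rbfox3, the neuronal splicing factor known as NeuN, was higher by 0.94 and Tardbp, TDP-43, by 0.96 on its brightest probe set. The other Tardbp probe sets were at 0.38 (called) and at 0.19, 0.15 and -0.04 (not called). Sh3gl3, an endophilin, was 4.31-fold lower.

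The same regional difference was present in CAG42 mice, which are other animals than the WT mice. In their cerebellum and brainstem 21011 probe sets (46.7%) and 50.0% of genes were called. Of the 21170 called in WT, 18311 (86.5%) were called the same way in CAG42 and 0 the opposite way, and of the 5503 with a difference of at least 1 in WT it was 5471 (99.4%). Tested directly, the WT and CAG42 differences departed from each other in 1 of 45037 probe sets (0.00222%). Without adjustment 757 had a limma p under 0.05, fewer than the share of 0.05 which that threshold gives without any difference. The test was thus a cautious one, and a lack of calls does not show that the differences were equal. The test used the fit that includes liver and was not repeated with the hindbrain arrays alone. The 1 probe set called has no gene name here. Its levels were 3.87, 3.45, 3.49 and 3.99 in WT cerebellum, 5.91, 5.80, 5.41 and 5.70 in WT brainstem, 2.89 to 3.21 in CAG42 cerebellum and 3.33 to 3.75 in CAG42 brainstem. It was thus higher in WT brainstem than in the other groups (WT minus CAG42 of the regional differences -1.61, SE 0.21, adjusted p = 0.0032). Pmch differed by -6.10 in WT and -3.93 in CAG42 mice, within the spread of the brainstem arrays (limma, adjusted p = 1). No named gene passed that test, and the peptide genes nearest to it were Grp (-3.70 in WT and -3.17 in CAG42) and Cck (-0.45 and 0.14), both with a limma adjusted p of 1.

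**Figure D5:**
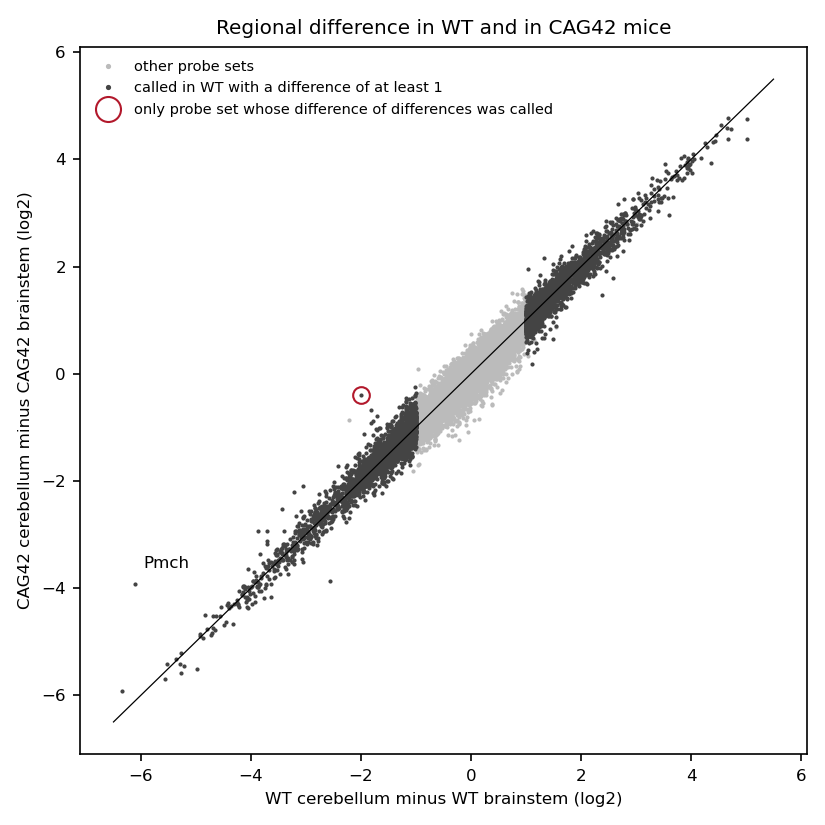
Difference between cerebellum and brainstem (log2) of every probe set in WT mice (x axis) and in CAG42 mice (y axis), dark where called in WT with a difference of at least 1, with a line at equal differences. Points broadly follow the line. Among those that lie off it are the circled probe set, at -2.0 in WT and -0.39 in CAG42, and Pmch, at -6.10 and -3.93.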

How the data were processed

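Total RNA of cerebellum, brainstem and liver was hybridised to Affymetrix mouse whole-genome arrays, 1 array a sample. The deposited values are log2 expression levels that the authors made with RMA, in R 2.7.0 per the submitters' processing notes. Background correction and quantile normalization therefore preceded every value here, and levels near the lower end are compressed. The sources differ on the amount of RNA and the labelling kit. Probe sets were named from GEO's platform annotation: of 45141 probe sets, 104 controls were left out, 28898 of the other 45037 had 1 gene and 551 several.

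limma 3.58.1 (R 4.3.3) was fitted over 24 arrays with a mean for each of 6 groups, empirical Bayes variances and Benjamini-Hochberg adjustment over 45037 probe sets. SEs and 95% intervals are those of this fit. It was tested on simulated data. Every adjusted p comes from limma. Per the study's methods the arrays of a group come from different animals, and only 4 arrays a group limit the precision. Same-numbered WT cerebellum and brainstem arrays deviated together from their group means (r 0.262 to 0.375 in 4 pairs, against -0.18 to -0.0321 in 12 other pairs). Deviations from a group mean cancel out within the group, so the negative values are in part forced by the positive ones. The labels state no pairing, and what gave the shared deviations was not tested. The main fit treated the arrays as unpaired. Named genes were the 25 with the largest difference in each direction among calls without overlap, up to 8 called members of each list with the largest difference, members that define a cell type, Atxn2, Pabpc1, Fbxw8 and Adam1a, and genes with the lowest p for the WT and CAG42 contrast. Not every such gene is printed. Members and lists were chosen with earlier results of these data known. Motifs were searched in RefSeq windows of 250 bases (Python 3.11.15, pandas 2.3.3). Other sample sets, blocks, scalings, filters, weights, priors and probe set summaries were tried.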

Additional observations from a re-analysis of the deposited data

Results flagged for a closer look

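In 27 of 342 groups of 4 arrays (171 named genes in each region), the highest or lowest array stood apart from the other 3 by Dixon's criterion, which chance meets in about 1 of 20 groups. WT brainstem replicate 4 was apart for Avp (8.61, others 4.23 to 4.53), Isl1 (6.0, others 5.23 to 5.35) and Zic2 (4.90). WT brainstem replicate 1 was apart for Hoxa9 (3.11), Gabrg1 (8.2), C1ql3 (7.88), Glrb (9.67), Nefl (12.65) and Cx3cr1 (8.16), replicate 2 for Slc6a2 (6.73), Kcnq5 (7.42), Ncan (8.15) and Cacna1a (7.25), and replicate 3 for Ecel1 (7.75) and Adam1a (6.30).

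WT cerebellum replicate 4 was apart for Shox2 (4.03, others 2.89 to 2.97), Nrgn (4.42, others 3.73 to 3.83), Vip (3.17, others 2.51 to 2.61), Npff (4.67) and Hba-a1 (13.30). Replicate 3 was apart for Fbxw8 (7.81, others 6.63 to 6.80) and Glrb (8.61, others 8.79 to 8.82), replicate 1 for Pax6 (9.27) and Calb1 (12.29), and replicate 2 for Iltifb (8.58), Hcrt (2.91) and Rbfox3 (12.37). For Cacna1a, Hcrt and Rbfox3 the other arrays lay within 0.01 of each other, so a small gap was enough.

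The regional difference of 1 unnamed probe set was not the same in WT and CAG42 mice. It was -2.0 in WT and -0.39 in CAG42, and the test of WT minus CAG42 gave -1.61 (SE 0.21, limma adjusted p = 0.0032).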

How the results depend on the processing

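The counts of calls stayed within 1.5 times the reported ones under the other sample sets, array weights, the trended prior, the filter on dim probe sets, median centring, quantile normalization and the omission of any single array (19602 to 20034 calls). limma's treat against a difference of 1 called 2621 probe sets, 1070 higher and 1551 lower. Centring on ribosomal protein genes, chosen after seeing the data, gave 26302 higher and 4758 lower, of which 5493 and 1561 differed by at least 1, and moved the median of all genes from -0.15 to 0.30. With the replicate number as a block, 21652 probe sets were called over 24 arrays and 24496 over the 8 WT arrays. Of the 171 named genes the block cost no call over 24 arrays and that of Ttr over 8, and it added Hba-a1 in both fits and Alas2, Atxn2 and Fabp7 over 8.

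Among genes whose sign turned, Fbxw8 was at -0.14 without WT cerebellum replicate 3, and Pabpc1 at 0.04 with median centring, 0.20 with quantile normalization, 0.09 as the mean of its probe sets and 0.40 with ribosomal centring. Aqp4 was at 0.17 with quantile normalization, 0.38 as the mean of its probe sets and 0.40 with ribosomal centring, and Pnmt at 0.11 without WT brainstem arrays 3 and 4 (chosen after seeing the data) and 0.36 with ribosomal centring. That centring also turned Atxn2 (0.13), Npy (0.21), Mbp (0.01), Cck (0.00), Hba-a1 (0.17), Alb (0.26) and Glra3 (0.35). Atxn2 was called lower with the 16 hindbrain or the 8 WT arrays alone, with the block over those 8 and with array weights. The filter on dim probe sets left 6 Hox genes and 16 peptide genes called lower. Hoxb9 lost its call without WT cerebellum replicate 1 or 2 or WT brainstem replicate 3. The causes were not tested.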

Other observations

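Of 4 genes of red blood cells 1 was called higher in cerebellum, Hba-a2 (0.70, SE 0.12, limma adjusted p = 4.96e-05), and none lower. The mean levels of Hba-a2 were only 3.98 in WT cerebellum and 3.28 in WT brainstem, the latter under the background level. Hba-a1, an alpha globin, had levels of 12.46, 12.52, 12.50 and 13.30 in WT cerebellum arrays 1 to 4 and of 12.69, 12.98, 12.77 and 13.47 in WT brainstem, with array 4 highest in both. Alas2, the haem synthesis enzyme of red cells, was also highest in array 4 of both regions, at 5.17 and 6.12. Neither was called between the regions (limma, adjusted p = 0.257 and 0.174). With the replicate number as a block, Hba-a1 was called lower over the 24 arrays (-0.28, limma adjusted p = 0.0488), and over the 8 WT arrays both were (limma adjusted p = 0.0163 and 0.00807), with 3 of the 4 genes then lower.

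Of 12 immediate early genes, which neurons switch on when active, 3 were called higher in cerebellum (against 14.0% of all genes) and 3 lower (against 36.6%). The higher ones fell to 1 without WT cerebellum replicate 1, WT brainstem replicate 1 or WT brainstem replicate 4, and with ribosomal centring the counts were 6 and 0. Ier2 was 2.07-fold higher (difference 1.05, SE 0.18), and Fosb had levels of 2.7 to 2.90 in cerebellum and 3.27 to 3.74 in brainstem (difference -0.64). Of 9 genes of liver, the third tissue of the series, 6 were under the background level in both hindbrain regions. Alb, albumin, had levels of 2.73 to 3.32 and 3.04 to 3.31.

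Fbxw8 was high in array 3 of both WT regions (7.81 in cerebellum and 7.37 in brainstem, the other WT arrays lying between 6.61 and 6.80). In CAG42 mice it lay at 8.23 to 8.51 in cerebellum and 7.72 to 7.82 in brainstem, so that array 3 labelled WT lay between the other WT arrays and the CAG42 arrays in both regions. The reason was not tested. Without both WT arrays 3, an alternative chosen after seeing the data, 7448 probe sets were called higher and 11315 lower, and of the 171 named genes Pcp4 (0.67), Hcrt (-1.95) and Hoxb9 (0.25) lost their calls (limma adjusted p = 0.0701, 0.0984 and 0.0592).

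Probe sets without a single gene name leaned the other way from named ones. Of 16139 such probe sets 23.6% were called higher in cerebellum and 21.1% lower, against 16.1% and 32.2% of 28898 with 1 gene. The gap was widest at mean levels of 5 to 7, where the median difference was 0.33 against -0.10. Above a level of 9 the medians were -0.26 and -0.30.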
